A study of Rattus norvegicus with 6 samples.

Results

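The genes described here make cholesterol, sense it, or take it up and move it within the liver. Of 30 listed genes, 27 were found on the array by 46 probe sets that carry that single gene symbol, among 14217 genes and 31042 probe sets in all. The list was set by gene name, with earlier results of these data known. Hmgcs1, which makes the precursor of mevalonate, the endosomal carrier Npc1 and the esterifying enzyme Soat2 were not analysed here. The measured genes were 7 of 8 for the steps that lead to squalene, 10 of 10 for the steps that turn squalene into cholesterol, 4 of 4 for sterol sensing, and 6 of 8 for uptake, trafficking and esterification. A gene with several probe sets was represented by the brightest, the one with the highest mean over the arrays.

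Liver RNA from 3 groups of congenic BB rats was hybridized to Affymetrix RG230 2.0 arrays, 2 arrays to a group. Both BBDR.lyp/lyp groups are homozygous for lyp, a frameshift in Gimap5 that is followed by lymphopenia and spontaneous diabetes. By label the post-hyperglycemia rats were 55 days old, the pre-hyperglycemia rats were 50 days old, and the BBDR.+/+ rats, with no lyp mutation, were 55 days old. These ages are given within 5 days, so the groups may overlap in age. The paper gives a later average age at hyperglycemia onset. Nothing in the labels shows that the arrays of a group came from separate rats, so p-values measure the spread between these samples, which may be technical. The labels give a 12 h fast, whereas the methods give free food, and the amplification kits named also differ. The lyp allele is carried in every cell, and the pre-hyperglycemia rats were also the younger ones by label, so age and glycemic state cannot be told apart in that comparison.

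Levels are on the log2 scale, where 1 unit is a doubling of signal, and differences are the first group named minus the second. A gene was called where limma, fitted to all 31042 probe sets, gave a Benjamini-Hochberg adjusted p under 0.05. The median signal of the arrays was 5.90 to 5.94. Control probe sets at the 3' end of beta-actin exceeded those at the 5' end by 2.11 and 2.04 on the post-hyperglycemia arrays, 1.51 and 1.32 on the pre-hyperglycemia arrays, and 1.36 and 1.12 on the BBDR.+/+ arrays. The post-hyperglycemia arrays therefore carried the least 5' signal relative to 3' signal for this control. The 5 of 6 hepatocyte markers measured averaged 13.64 to 13.71 on every array, near the top of the scale. The tissue is bulk liver, in which fewer cells of a type and less RNA per cell cannot be told apart.

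Cholesterol is built from acetyl-CoA through mevalonate and squalene in a long chain of enzymes. When sterols in the endoplasmic reticulum are low, SCAP carries the transcription factor SREBP-2 to the Golgi apparatus, where it is cut and freed to turn on the genes of this chain. When sterols are plentiful, the INSIG proteins hold SCAP back. Liver also takes up cholesterol from lipoproteins and removes it as bile acids or in bile.

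SREBP-2 acts together with NF-Y and Sp1, factors that bind CCAAT and GGGCGG, so the RefSeq promoter windows of 5 members (rat build GRCr8, 250 bases before the annotated start, 5' to 3' along the gene) are shown. Mvd and Insig2 are called members that differed in opposite directions, Cyp51 is the enzyme whose pattern over the arrays was most like that of the other members, Nsdhl holds 5 CCAAT boxes, and Insig1 is the partner of Insig2. The windows lie at chr19:67414975-67415224 on the minus strand for Mvd, chr4:30991443-30991692 on the plus strand for Cyp51, chrX:155817110-155817359 on the plus strand for Nsdhl, chr4:8057770-8058019 on the minus strand for Insig1 and chr13:35040099-35040348 on the minus strand for Insig2. Capitals mark CCAAT or its complement ATTGG, and GGGCGG or its complement CCGCCC.
Mvd: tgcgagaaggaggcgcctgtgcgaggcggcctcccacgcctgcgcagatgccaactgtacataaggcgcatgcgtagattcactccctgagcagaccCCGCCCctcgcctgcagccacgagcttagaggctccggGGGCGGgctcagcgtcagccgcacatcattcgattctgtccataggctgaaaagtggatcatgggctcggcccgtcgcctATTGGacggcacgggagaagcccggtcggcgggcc
Cyp51: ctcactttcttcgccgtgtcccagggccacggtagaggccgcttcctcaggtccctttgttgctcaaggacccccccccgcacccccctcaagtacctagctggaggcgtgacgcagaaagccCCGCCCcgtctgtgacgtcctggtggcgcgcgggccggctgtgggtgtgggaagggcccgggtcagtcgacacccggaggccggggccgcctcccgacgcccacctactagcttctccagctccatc
Nsdhl: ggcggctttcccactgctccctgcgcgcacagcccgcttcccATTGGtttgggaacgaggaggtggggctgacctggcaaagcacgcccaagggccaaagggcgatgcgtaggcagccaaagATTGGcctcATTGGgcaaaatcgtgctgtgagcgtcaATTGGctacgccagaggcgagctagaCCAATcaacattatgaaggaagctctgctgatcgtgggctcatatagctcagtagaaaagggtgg
Insig1: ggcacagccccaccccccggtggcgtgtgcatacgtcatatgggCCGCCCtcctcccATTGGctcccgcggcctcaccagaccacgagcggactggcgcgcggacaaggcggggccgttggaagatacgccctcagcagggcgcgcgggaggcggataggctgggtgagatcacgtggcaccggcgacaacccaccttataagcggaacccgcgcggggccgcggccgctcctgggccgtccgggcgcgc
Insig2: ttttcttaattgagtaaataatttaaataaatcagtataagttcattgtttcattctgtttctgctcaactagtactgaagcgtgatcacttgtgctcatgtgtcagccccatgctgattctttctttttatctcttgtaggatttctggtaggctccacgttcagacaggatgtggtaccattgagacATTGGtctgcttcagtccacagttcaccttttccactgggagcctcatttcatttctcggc

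Of the 27 members, 22 had a window, and Pmvk, Fdft1, Sqle, Scarb1 and Stard4 had none. CCAAT or ATTGG stood in 16 of the 22 windows (72.7%), against 4104 of 11701 windows of all genes on the array (35.1%). By role it stood in 4 of 5 windows for the steps to squalene, 7 of 9 for the later steps, 3 of 4 for sensing and 2 of 4 for uptake and trafficking. Box distances from the start were 35 bases for Mvd, 61 for Insig2, 193 for Insig1, and 208, 128, 119, 91 and 65 for Nsdhl, whereas Cyp51 held none. GGGCGG or CCGCCC stood in 19 of the 22 (86.4%), against 54.2% of all windows. The sterol regulatory element, searched as TCACNCCAC on both strands, was in 0 of the 22 windows and in 114 of the 11701 (1.0%). The end of CCGCCC can be the start of CCAAT, and a pair that overlaps in this way counts for both motifs. A match describes the sequence and is not a measured binding site.

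By their brightest probe sets, members as a whole stood highest on the pre-hyperglycemia arrays and lowest on the BBDR.+/+ arrays. The dimmer probe sets did not share the whole order. For post-hyperglycemia minus BBDR.+/+ the 19 dimmer ones had a median of -0.09, and the brightest of the same genes 0.21. With each gene centred on its mean over the 6 arrays, the 27 members averaged 0.01 and 0.05 on the post-hyperglycemia arrays, 0.12 and 0.12 on the pre-hyperglycemia arrays, and -0.17 and -0.14 on the BBDR.+/+ arrays. These levels did not overlap between groups, and no matching mean over all genes was computed. The 10 enzymes after squalene followed the same order, at 0.02 and 0.06 post-hyperglycemia, 0.15 and 0.13 pre-hyperglycemia, and -0.18 and -0.18 in BBDR.+/+. For the 7 enzymes before squalene the post-hyperglycemia values of 0.05 and 0.11 lay next to the pre-hyperglycemia values of 0.12 and 0.11, and the BBDR.+/+ values were -0.20 and -0.19. The sensing genes were at -0.07 and -0.04 post-hyperglycemia, 0.11 and 0.19 pre-hyperglycemia, and -0.14 and -0.05 in BBDR.+/+, so that the post-hyperglycemia and BBDR.+/+ arrays overlapped.

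**Figure D1:**
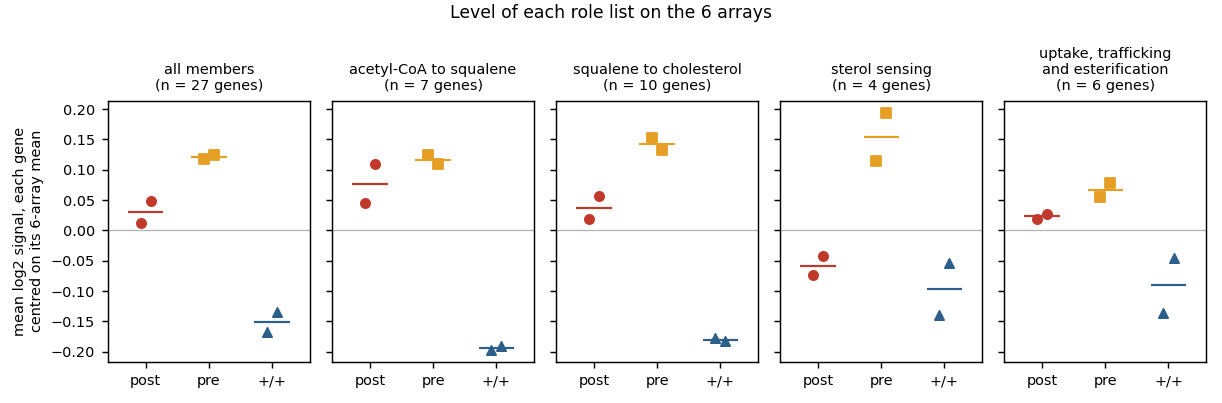
Mean log2 signal of each role list (vertical axis, brightest probe set of every gene, centred on its mean over 6 arrays) on the post-hyperglycemia (post), pre-hyperglycemia (pre) and BBDR.+/+ arrays, with points for arrays and lines for the mean of 2. Over all 27 members the BBDR.+/+ arrays lie at -0.17 and -0.14 and the pre-hyperglycemia arrays at 0.12.

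Single members varied in how closely they kept to this order. As a description over 6 arrays that share 3 groups, the correlation of a member with the mean of the others was 0.96 for Cyp51, 0.95 for Tm7sf2, and 0.94 each for Pmvk and Dhcr7. It was -0.48 for Osbp, -0.17 for Insig2 and -0.06 for Soat1, the members that did not go with the rest. Soat1, which esterifies cholesterol in many tissues, was dim on all arrays, between 4.22 and 4.40. Among 14190 genes outside the list, those whose pattern was most like the members' mean were Coq8a (r = 0.994), a mitochondrial protein of coenzyme Q synthesis, the mitochondrial ribosomal gene Mrpl2 (0.992), the replication helicase subunit Mcm2 (0.991), the microtubule regulator Stmn1 (0.987) and the disulfide-forming oxidase Qsox1 (0.985).

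**Figure D2:**
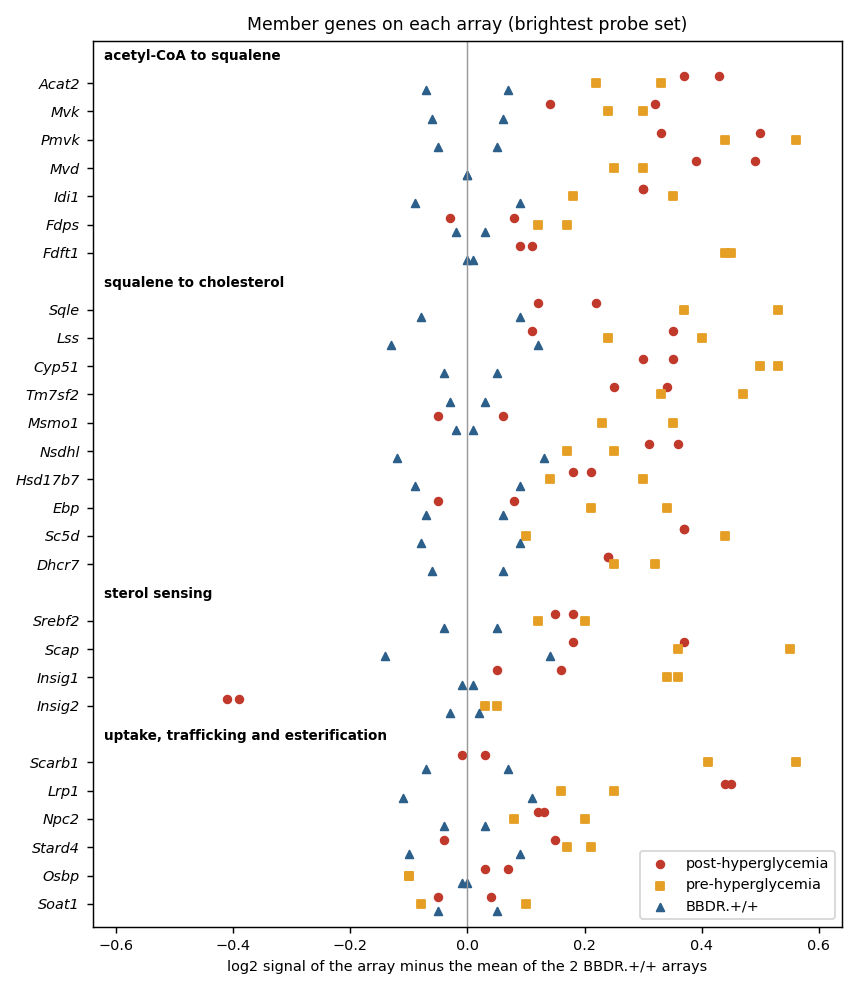
Each member on each array (horizontal axis, log2 signal minus the mean of the 2 BBDR.+/+ arrays, brightest probe set), with genes down the page by role and symbols for the groups. Insig2 averages -0.39 on the post-hyperglycemia arrays. The pre-hyperglycemia arrays lie to the right of both BBDR.+/+ arrays for 25 of the 27 genes (28.3% of all genes), though no member passed the test in this comparison.

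The comparison of post-hyperglycemia with BBDR.+/+ liver sets diabetic rats against normal rats of the same labelled age. Mvd and Lrp1 were higher after hyperglycemia and Insig2 was lower, and the other 24 members did not pass. These 3 of 27 stand beside 3.52% of all genes called in either direction, 2.29% higher and 1.24% lower. Of the members, 25 had a difference above 0 (59.3% of all genes), and both post-hyperglycemia arrays lay above both BBDR.+/+ arrays in 19 (32.4% of all genes) and below them in 1, Insig2 (18.3%). The median difference was 0.20 over the members and 0.04 over all genes. By an unadjusted p under 0.05 alone, 10 members were higher (13.4% of all genes) and 1 was lower (5.47%).

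Mvd decarboxylates mevalonate pyrophosphate to the first isoprenoid unit of the chain. It was at 9.35 and 9.25 on the post-hyperglycemia arrays, 9.16 and 9.11 on the pre-hyperglycemia arrays, and 8.86 and 8.86 on the BBDR.+/+ arrays. The 3 groups did not overlap, and the pre-hyperglycemia arrays lay between the others. Mvd rose by 0.44 over BBDR.+/+ (SE 0.10, 1.36-fold, adjusted p = 0.0318), while the differences of 0.17 from pre-hyperglycemia and 0.28 between pre-hyperglycemia and BBDR.+/+ did not pass. The call ended without post-hyperglycemia replicate 1 (0.39) or 2 (0.50) and without BBDR.+/+ replicate 1 (0.44) or 2 (0.44), and held without either pre-hyperglycemia array. It also ended with quantile normalization (0.42, adjusted p = 0.0517) and with the difference between 3' and 5' signal as a covariate (0.33, adjusted p = 0.894).

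Among its neighbours in the chain, Pmvk, which adds the phosphate before the Mvd step, was at 9.99 and 10.16 post-hyperglycemia, 10.10 and 10.22 pre-hyperglycemia, and 9.71 and 9.61 in BBDR.+/+. Both lyp/lyp groups overlapped each other and lay above BBDR.+/+, by 0.41 (adjusted p = 0.0592) after and 0.50 (adjusted p = 0.0820) before hyperglycemia. Acat2, the cytosolic thiolase that joins acetyl-CoA units, differed by 0.40 after hyperglycemia (adjusted p = 0.0584) and 0.28 before. Mvk (0.22 and 0.27) and the isomerase Idi1 (0.30 and 0.26) had like differences that did not pass. Fdps, which makes farnesyl pyrophosphate, was at 0.02 and 0.14.

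Lrp1, a large endocytic receptor for lipoprotein remnants, was at 11.71 and 11.72 on the post-hyperglycemia arrays, 11.43 and 11.52 on the pre-hyperglycemia arrays, and 11.16 and 11.38 on the BBDR.+/+ arrays. Again the groups did not overlap, with an SD of 0.01 post-hyperglycemia, 0.07 pre-hyperglycemia and 0.16 in BBDR.+/+. Lrp1 rose by 0.44 over BBDR.+/+ (SE 0.11, adjusted p = 0.0466), and its dimmer probe set differed by -0.07. The call ended with any 1 of the 6 arrays left out, which gave 0.45 and 0.44 for post-hyperglycemia replicates 1 and 2, 0.33 and 0.56 for BBDR.+/+ replicates 1 and 2, and 0.44 for either pre-hyperglycemia array. It ended as well with arrays centred on ribosomal protein genes (0.44, adjusted p = 0.0548) and with the covariate for the difference between 3' and 5' signal (1.06, adjusted p = 0.632). Macrophages express Lrp1 too. The 4 of 6 Kupffer cell markers measured had summed linear signals of 5384 to 5979 post-hyperglycemia, 5125 to 5217 pre-hyperglycemia and 4304 to 4393 in BBDR.+/+. Of the 4 markers, 2 were called higher than in BBDR.+/+ after hyperglycemia. The part of Kupffer cells in the Lrp1 difference was not tested.

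Insig2 holds SCAP in the endoplasmic reticulum. Its brightest probe set was at 10.62 and 10.64 on the post-hyperglycemia arrays, 11.06 and 11.08 on the pre-hyperglycemia arrays, and 11.05 and 11.00 on the BBDR.+/+ arrays. Both post-hyperglycemia arrays lay below all 4 others, which stood close together. Insig2 fell by 0.39 against BBDR.+/+ (SE 0.10, 1.31-fold lower, adjusted p = 0.0467), and the difference of -0.43 from pre-hyperglycemia had an adjusted p = 0.0520. The dimmer probe set was at 9.94 and 10.25, 10.47 and 10.70, and 10.29 and 10.48 in the same order of groups, and was lower after hyperglycemia by values of -0.29 against BBDR.+/+ and -0.50 against pre-hyperglycemia that did not pass. The call against BBDR.+/+ ended with any 1 array left out, which gave -0.38 and -0.41 for post-hyperglycemia replicates 1 and 2, -0.37 and -0.42 for BBDR.+/+ replicates 1 and 2, and -0.39 for either pre-hyperglycemia array. Centring the arrays on their median (-0.37, adjusted p = 0.0577) and the covariate (-0.45, adjusted p = 0.841) ended it too.

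Against BBDR.+/+ after hyperglycemia the other sensing genes had differences above 0 that did not pass, 0.11 for Insig1, 0.28 for Scap and 0.16 for Srebf2. Insig1, which SREBP-2 itself turns on, was at 12.52 and 12.41 post-hyperglycemia, 12.70 and 12.72 pre-hyperglycemia, and 12.35 and 12.37 in BBDR.+/+. It stood highest before hyperglycemia with no overlap between groups, and its other differences of -0.24 (post-hyperglycemia minus pre-hyperglycemia) and 0.35 (pre-hyperglycemia minus BBDR.+/+) did not pass. Scap was at 9.60 and 9.79 post-hyperglycemia, 9.78 and 9.97 pre-hyperglycemia, and 9.28 and 9.56 in BBDR.+/+, and its largest difference, 0.46 between pre-hyperglycemia and BBDR.+/+, had an adjusted p = 0.172. Srebf2, which encodes SREBP-2, was at 9.95 and 9.98 post-hyperglycemia, 9.92 and 10.00 pre-hyperglycemia, and 9.76 and 9.85 in BBDR.+/+. The lyp/lyp groups overlapped in Srebf2, with a difference of 0.01 (95% interval -0.21 to 0.24).

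The comparison of post-hyperglycemia with pre-hyperglycemia liver follows the onset of hyperglycemia within the lyp/lyp genotype and uses the same post-hyperglycemia arrays again. Scarb1 was lower after hyperglycemia and the other 26 members did not pass. That is 1 of 27, beside 1.37% of all genes called, 0.703% higher and 0.668% lower. The median difference was -0.09 over the members and 0.01 over all genes. A difference above 0 was found for 8 members (53.4% of all genes). Both post-hyperglycemia arrays lay below both pre-hyperglycemia arrays in 11 members (20.5% of all genes) and above them in 5 (25.6%). At an unadjusted p under 0.05, 7 members were lower (5.89% of all genes) and 0 higher (7.52%). Rank product called 0 members by their brightest probe sets.

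Scarb1, the receptor that takes cholesteryl esters from high-density lipoprotein, was at 8.88 and 8.84 on the post-hyperglycemia arrays, 9.26 and 9.41 on the pre-hyperglycemia arrays, and 8.78 and 8.92 on the BBDR.+/+ arrays. The post-hyperglycemia arrays overlapped those of BBDR.+/+, and both pre-hyperglycemia arrays stood above the rest. By this probe set Scarb1 fell by 0.48 against pre-hyperglycemia (SE 0.11, 1.40-fold lower, adjusted p = 0.0499), differed by 0.01 from BBDR.+/+ after hyperglycemia, and by 0.49 before (adjusted p = 0.0845). The call ended with any 1 array left out, at -0.50 and -0.46 without post-hyperglycemia replicate 1 and 2, -0.56 and -0.41 without pre-hyperglycemia replicate 1 and 2, and -0.48 without either BBDR.+/+ array. It ended too with quantile normalization or ribosomal protein centring (-0.47 in both) and with the covariate (-0.04, adjusted p = 0.988). The study picked Scarb1, and also Osbp, for its lipid lists on these arrays, so their calls are not independent evidence.

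The second probe set of Scarb1, 1367855_at, gave another order. It was at 7.59 and 7.74 post-hyperglycemia, 8.51 and 8.91 pre-hyperglycemia, and 8.24 and 8.56 in BBDR.+/+, so that the post-hyperglycemia arrays lay below all others. It fell by 1.05 against pre-hyperglycemia (SE 0.15, 2.07-fold lower, adjusted p = 0.00764) and by 0.74 against BBDR.+/+ (adjusted p = 0.0198). The first call ended without post-hyperglycemia replicate 1 (-0.97) or pre-hyperglycemia replicate 2 (-0.85), and the second without post-hyperglycemia replicate 1 (-0.66) or 2 (-0.81) or BBDR.+/+ replicate 2 (-0.58). Rank product called this probe set lower in both comparisons, at an estimated share of false positives of 0.0214 and 0.171. With the covariate, it was at 0.07 and 0.55 and did not pass. The covariate lay highest on both post-hyperglycemia arrays, so its part and that of the group cannot be told apart. The paper prints fold changes of 2.1 and 1.7 for Scarb1, with no minus sign. Its methods average the 2 liver samples taken before hyperglycemia, and its table caption names lyp/+ rats beside BBDR.+/+. Its samples therefore differ from those compared here. Here this probe set was 2.07-fold and 1.67-fold lower after hyperglycemia, so the directions differ.

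Several enzymes at and after squalene stood highest before hyperglycemia without passing the test. Fdft1, which joins farnesyl units into squalene, was at 11.23 and 11.25 post-hyperglycemia, 11.58 and 11.59 pre-hyperglycemia, and 11.14 and 11.15 in BBDR.+/+. The SD was 0.01 in each group (n = 2), and the difference of -0.35 between the lyp/lyp groups had an adjusted p = 0.111. Sqle, which oxidizes squalene, was at 9.35 and 9.45 post-hyperglycemia, 9.60 and 9.76 pre-hyperglycemia, and 9.15 and 9.32 in BBDR.+/+, a difference of -0.28 between the lyp/lyp groups (adjusted p = 0.261). The methylsterol oxidase Msmo1 (-0.28) and the sterol isomerase Ebp (-0.26) were also lower at an unadjusted p under 0.05 alone, and neither differed from BBDR.+/+ by more than 0.02 after hyperglycemia. Nsdhl, which acts on the same methyl groups, was at 0.12, the sterol desaturase Sc5d at 0.11, and Dhcr7, which makes cholesterol in the final reduction, at -0.05.

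**Figure D3:**
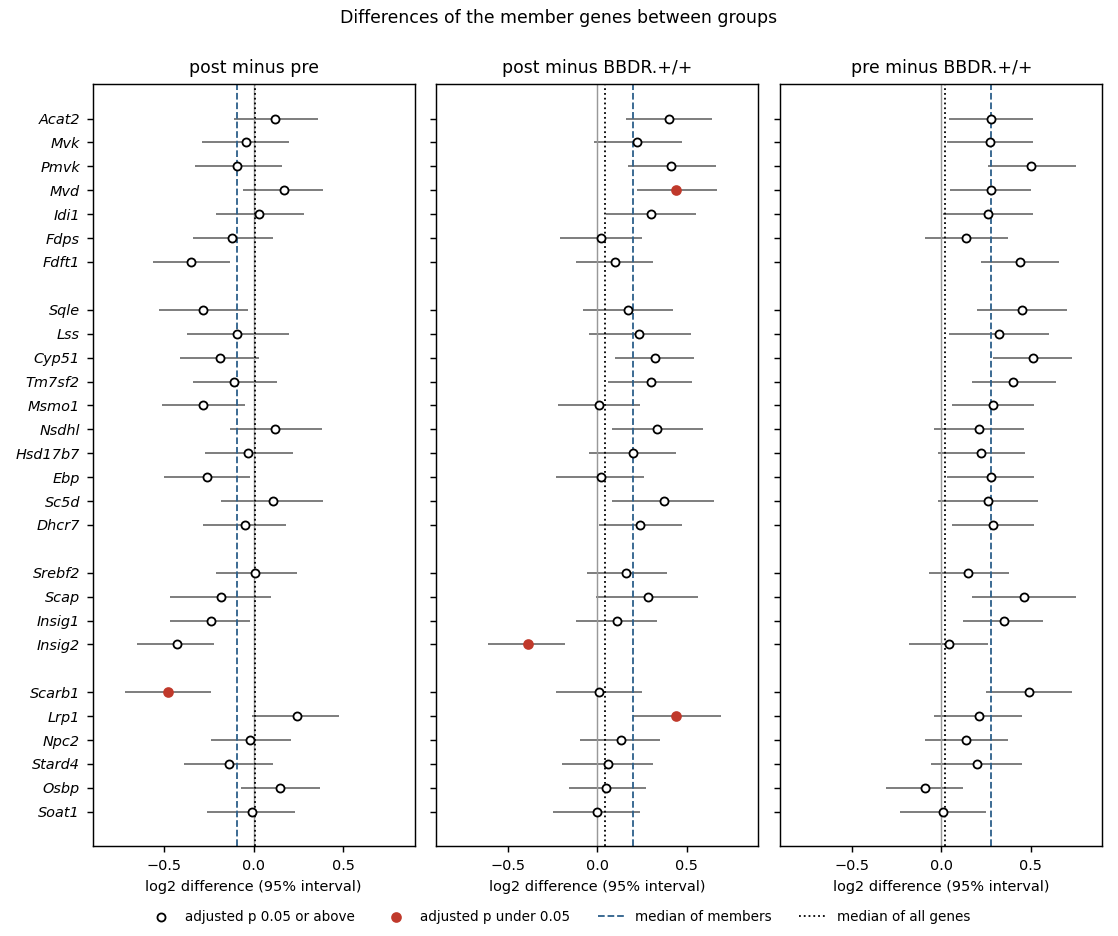
Log2 difference of each member (points, horizontal axis, with 95% intervals from limma) for post-hyperglycemia minus pre-hyperglycemia, post-hyperglycemia minus BBDR.+/+ and pre-hyperglycemia minus BBDR.+/+. Filled points passed an adjusted p under 0.05, and the dashed median of the members lies at -0.09, 0.20 and 0.28, against 0.01, 0.04 and 0.02 for all genes (dotted).

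The comparison of pre-hyperglycemia with BBDR.+/+ liver sets the genotypes apart before diabetes, with the lyp/lyp rats 5 days younger by label. By limma 0 of 27 members passed, beside 0.802% of all genes called, 0.584% higher and 0.218% lower. Without adjustment, at a p under 0.05, 16 members were higher (8.48% of all genes) and 0 lower (3.72%). Rank product called 0 by their brightest probe sets. The median difference was 0.28 over the members and 0.02 over all genes, and 26 of 27 members had a difference above 0 (56.3% of all genes). Both pre-hyperglycemia arrays exceeded both BBDR.+/+ arrays in 25 members (28.3% of all genes), among them all 17 enzymes of synthesis and all 4 sensing genes, and lay below them in 1, Osbp (17.7%). The role medians were 0.28 before squalene, 0.29 after it, 0.25 for sensing and 0.17 for uptake, trafficking and esterification.

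Cyp51, which removes a methyl group from lanosterol, came nearest to the threshold. It was at 11.95 and 11.90 post-hyperglycemia, 12.13 and 12.10 pre-hyperglycemia, and 11.65 and 11.56 in BBDR.+/+. The groups did not overlap, and post-hyperglycemia lay between the others. Its difference of 0.51 between pre-hyperglycemia and BBDR.+/+ (SE 0.10, 95% interval 0.29 to 0.73, 1.42-fold) had an adjusted p = 0.0528, and its second probe set, at 0.45, had an adjusted p = 0.133. Pmvk followed with 0.50, then Scarb1 with 0.49, Scap with 0.46, Sqle with 0.45, Fdft1 with 0.44 and the sterol reductase Tm7sf2 with 0.40. Their standard errors of 0.10 to 0.13 exceeded the gaps between neighbours in this order.

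The genes that move cholesterol within the cell or esterify it had small differences. Stard4, a cytosolic sterol carrier, was at 9.16 and 9.35 post-hyperglycemia, 9.41 and 9.37 pre-hyperglycemia, and 9.10 and 9.29 in BBDR.+/+, and its 3 differences lay between -0.14 and 0.20. Npc2, which hands cholesterol out of lysosomes, lay between -0.02 and 0.14, and Soat1 between -0.01 and 0.01, and none of these passed. Osbp, which exchanges sterol between membranes, was at 9.15 and 9.11 post-hyperglycemia, 8.98 and 8.98 pre-hyperglycemia, and 9.07 and 9.08 in BBDR.+/+, lowest before hyperglycemia where most members stood highest, with differences between -0.09 and 0.15 that did not pass.

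Markers of other liver cells moved in more than 1 way. The 5 of 5 neutrophil and monocyte markers measured had summed linear signals of 1310 to 1453 post-hyperglycemia, 1430 to 1448 pre-hyperglycemia and 1024 to 1102 in BBDR.+/+, with 2 of 5 called higher than BBDR.+/+ in each lyp/lyp group. The 4 of 5 endothelial markers summed to 3274 to 3457, 3424 to 3559 and 2717 to 3069 in the same order of groups, with 1 called higher after hyperglycemia. The 6 of 6 T cell markers, few of whose cells lyp/lyp rats keep, summed to 218 to 239, 226 to 240 and 251 to 272. The 5 of 5 stellate cell markers summed to 2721 to 3314, 3698 to 4037 and 3245 to 3286, with 1 called lower after than before hyperglycemia and 1 called higher before hyperglycemia than in BBDR.+/+. The 3 of 5 erythroid markers summed to 5124 to 5424, 6555 to 7262 and 5887 to 6250, with 1 called higher before hyperglycemia than in BBDR.+/+. The stellate and erythroid sums were thus highest before hyperglycemia, as were most of the members. A linear sum follows its brightest gene, here Col3a1 (11.03 to 11.65) for stellate and Hbb (12.22 to 12.73) for erythroid cells. Median marker differences were -0.31 and -0.39 for post-hyperglycemia minus pre-hyperglycemia, and 0.23 and 0.48 for pre-hyperglycemia minus BBDR.+/+. The 5 of 5 pancreatic acinar markers summed to 558 to 565, 420 to 449 and 439 to 533, with 1 called higher after than before hyperglycemia. Their median difference between these groups was -0.02. Some markers were dim, such as Amy2a3 at 2.85 to 3.08 and Cxcr2 at 3.83 to 3.97. The lowest signal of any probe set was 2.26 to 2.31 on the arrays. The part of these cells in the members' differences was not tested.

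The 16 members with several probe sets had 19 dimmer ones, whose median lay below that of the brightest in each comparison. Single dimmer probe sets lay above the brightest of their gene in 5 of 19 for post-hyperglycemia minus pre-hyperglycemia, and in 4 of 19 for each comparison with BBDR.+/+. For post-hyperglycemia minus BBDR.+/+ the 19 dimmer probe sets had a median of -0.09 and the brightest of the same genes 0.21, and signs differed within 10 of the 16 members. Over all genes the medians were -0.07 for 6609 dimmer probe sets and 0.04 for the brightest. For post-hyperglycemia minus pre-hyperglycemia they were -0.20 and -0.04 in the members, with 5 of 16 differing in sign, and -0.05 and 0.02 over all genes. For pre-hyperglycemia minus BBDR.+/+ they were 0.17 and 0.24, with 3 differing, and -0.04 and 0.03 over all genes. The post-hyperglycemia arrays carried the least 5' signal relative to 3' signal of the controls. The place of each probe set on its transcript was not used here, so its part was not tested.

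Besides Scarb1, 3 dimmer probe sets passed, all of them lower after hyperglycemia. Over probe sets, 4 of 46 passed against pre-hyperglycemia (beside 2.18% of all probe sets), 0 of them higher (0.718%) and 4 lower (1.46%), and 5 of 46 against BBDR.+/+ (5.15%), 2 of them higher (1.89%) and 3 lower (3.26%). Sc5d 1387926_at was at 10.83 and 11.11 post-hyperglycemia, 11.48 and 11.69 pre-hyperglycemia, and 11.35 and 11.44 in BBDR.+/+. It fell by 0.62 against pre-hyperglycemia (adjusted p = 0.0326), where the brightest Sc5d probe set, at 12.10 and 12.10 post-hyperglycemia and 12.17 and 11.83 pre-hyperglycemia, was at 0.11 and the other dimmer one at 0.12. Its call ended without post-hyperglycemia replicate 1 (-0.48), pre-hyperglycemia replicate 2 (-0.51) or either BBDR.+/+ array (-0.62). With the covariate it was at -0.10 (adjusted p = 0.976).

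Fdft1 1389906_at was at 9.17 and 9.16 post-hyperglycemia, 9.60 and 9.66 pre-hyperglycemia, and 9.30 and 9.39 in BBDR.+/+. It fell by 0.46 against pre-hyperglycemia (adjusted p = 0.0428), the direction of the brightest probe set, and the call ended with any 1 array left out: -0.47 and -0.46 without post-hyperglycemia replicate 1 and 2, -0.50 and -0.43 without pre-hyperglycemia replicate 1 and 2, and -0.46 without either BBDR.+/+ array. The call also ended with quantile normalization or ribosomal protein centring (-0.45 in both) and with the covariate (-0.23, adjusted p = 0.913). Against BBDR.+/+ after hyperglycemia this probe set was at -0.18, where the brightest Fdft1 probe set was at 0.10, and neither passed. Osbp 1378816_a_at, a dim probe set, was at 4.59 and 5.13 post-hyperglycemia, 5.32 and 5.38 pre-hyperglycemia, and 5.67 and 5.68 in BBDR.+/+. It fell by 0.81 against BBDR.+/+ (adjusted p = 0.0130), where the brightest Osbp probe set was at 0.05. The call ended without BBDR.+/+ replicate 1 (-0.82) or 2 (-0.81), and with the covariate (-0.45, adjusted p = 0.912). Rank product also called this probe set lower, at an estimated share of false positives of 0.141. Nsdhl had 2 bright probe sets that differed in sign against BBDR.+/+, at 0.33 and -0.20, and neither passed. Its second was at 11.35 and 11.35 post-hyperglycemia, 11.59 and 11.65 pre-hyperglycemia, and 11.63 and 11.47 in BBDR.+/+. The dimmer probe set of Mvk, 1387119_at, was at 7.44 and 7.65 post-hyperglycemia, 7.87 and 8.26 pre-hyperglycemia, and 7.75 and 8.04 in BBDR.+/+, a difference of -0.35 from BBDR.+/+ where the brightest was at 0.22, and it did not pass either.

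Lss, Scap, Srebf2, Lrp1 and Soat1 also had probe sets that disagreed in sign, and of these Lrp1 alone passed, by its brightest probe set against BBDR.+/+. Lss, which closes squalene into the first sterol, was at 8.87 and 9.11 post-hyperglycemia, 9.0 and 9.16 pre-hyperglycemia, and 8.63 and 8.88 in BBDR.+/+ by its brightest probe set, and at 7.59 and 7.55, 7.82 and 8.0, and 7.52 and 7.72 by the dimmer one. Against BBDR.+/+ after hyperglycemia these differed by 0.23 and -0.05. The dimmer probe sets of Scap and Srebf2 lay in the middle of the signal range or below it, at 5.95 and 6.11 post-hyperglycemia, 6.03 and 6.0 pre-hyperglycemia, and 6.03 and 6.11 in BBDR.+/+ for Scap, and at 3.93 and 3.71, 4.0 and 3.95, and 3.99 and 3.84 for Srebf2. Their differences from BBDR.+/+ after hyperglycemia were -0.04 for Scap and -0.09 for Srebf2, where the brightest were at 0.28 and 0.16. The dimmer Lrp1 probe set was as faint, at 6.05 and 6.05 post-hyperglycemia, 6.0 and 6.0 pre-hyperglycemia, and 5.94 and 6.29 in BBDR.+/+. It differed from BBDR.+/+ by -0.07 after hyperglycemia, where the brightest rose by 0.44, and by -0.12 before it, where the brightest was at 0.21. The third Mvk probe set, 1375401_at, was at 5.34 and 5.34 post-hyperglycemia, 5.61 and 5.45 pre-hyperglycemia, and 5.53 and 5.41 in BBDR.+/+, and gave -0.13 against BBDR.+/+ after hyperglycemia. The third Sc5d probe set was at 10.37 and 10.46 post-hyperglycemia, 10.36 and 10.24 pre-hyperglycemia, and 10.19 and 10.17 in BBDR.+/+, with 0.24 in the same comparison, on the side of the brightest (0.37) and not of 1387926_at (-0.43). Soat1 was dim on both of its probe sets, and the fainter, at 3.57 and 3.69 post-hyperglycemia, 3.87 and 3.71 pre-hyperglycemia, and 3.65 and 4.20 in BBDR.+/+, gave -0.14 between pre-hyperglycemia and BBDR.+/+ against 0.01 for the brighter. After hyperglycemia the fainter was at -0.30 against BBDR.+/+ and the brighter at 0.00.

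**Figure D4:**
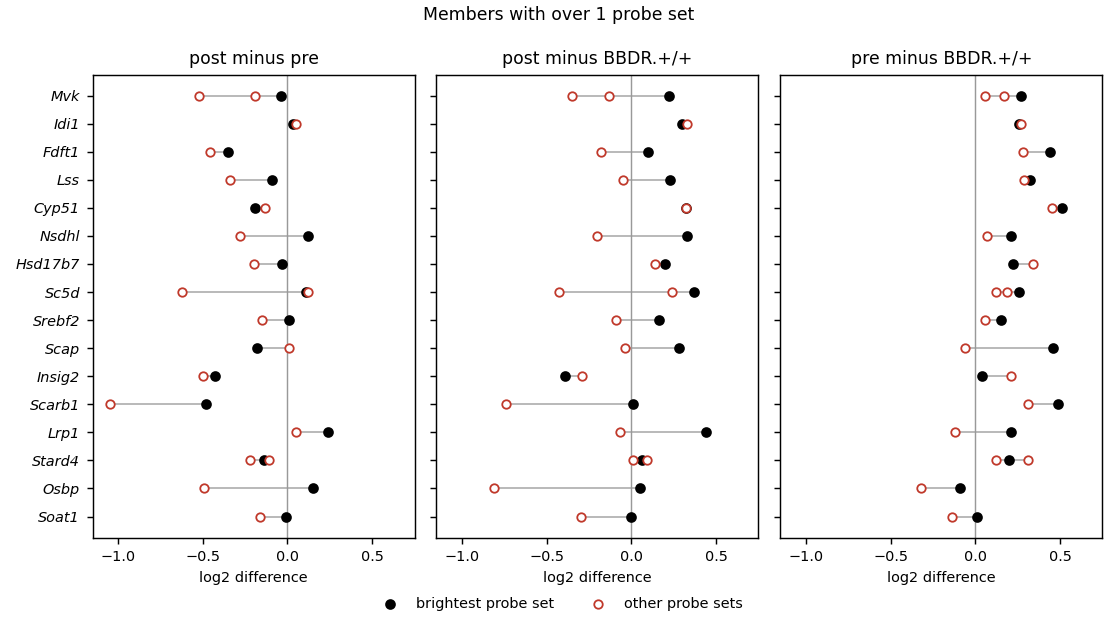
Log2 differences (horizontal axis) of the brightest probe set (filled) and the other probe sets (open) of the 16 members with more than 1, for the 3 comparisons. The open point of Scarb1 lies at -1.05 and -0.74 for the comparisons with post-hyperglycemia arrays, and that of Osbp at -0.81 against BBDR.+/+.

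Genes beside the list in the same pathways were read for context. Of 12 other synthesis genes and SREBP-2 targets, 8 were measured, with median differences of -0.11 (post-hyperglycemia minus pre-hyperglycemia), 0.12 (post-hyperglycemia minus BBDR.+/+) and 0.25 (pre-hyperglycemia minus BBDR.+/+). Among the 8 Acly, which supplies cytosolic acetyl-CoA, was the 1 that passed, lower before hyperglycemia than in BBDR.+/+ (-0.55, adjusted p = 0.0493). It was at 11.76 and 11.76 pre-hyperglycemia and 12.23 and 12.39 in BBDR.+/+, and the call ended with any 1 array left out (-0.63 without BBDR.+/+ replicate 1, -0.47 without BBDR.+/+ replicate 2, -0.55 without each of the others), with median centring (-0.53) or quantile normalization (-0.56), and with the covariate (-0.50). The 6 measured of 8 genes of SREBP processing and degradation had medians of 0.05, 0.01 and -0.03 in the same order of comparisons. No gene that processes or degrades SREBP passed by its brightest probe set. The 1 on this list that passed was Srebf1, whose product SREBP-1 is itself the factor processed and drives fatty acid synthesis. Srebf1 was lower after hyperglycemia than in BBDR.+/+ (-0.54, adjusted p = 0.0390), and the call ended without post-hyperglycemia replicate 1 (-0.44) or 2 (-0.64) or BBDR.+/+ replicate 1 (-0.67) or 2 (-0.41). Its dimmer probe set 1371104_at was at 8.51 and 8.87 post-hyperglycemia, 9.05 and 9.44 pre-hyperglycemia, and 9.36 and 9.88 in BBDR.+/+, and fell by 0.93 against BBDR.+/+ (adjusted p = 0.0191), a call that ended without post-hyperglycemia replicate 1 (-0.75) or BBDR.+/+ replicate 2 (-0.66). With the covariate the brightest was at 0.39 and this one at 0.89, and neither passed.

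All 8 genes of efflux and its LXR receptors and all 5 of cholesterol breakdown were measured. Abcg8, a subunit of the pump that moves sterols into bile, fell by 0.71 against pre-hyperglycemia (adjusted p = 0.0203), at 7.23 and 7.43 post-hyperglycemia, 7.92 and 8.16 pre-hyperglycemia, and 7.72 and 7.94 in BBDR.+/+. The call ended without post-hyperglycemia replicate 1 (-0.61) or pre-hyperglycemia replicate 2 (-0.59), and the brightest probe sets of the other 7 did not pass in any comparison. A dim probe set of the cholesterol exporter Abca1, 1394490_at, was at 5.19 and 5.39 post-hyperglycemia, 5.08 and 5.07 pre-hyperglycemia, and 4.69 and 4.67 in BBDR.+/+. It rose by 0.60 over BBDR.+/+ (adjusted p = 0.00961), where the brightest Abca1 probe set was at 0.14. That call ended without post-hyperglycemia replicate 2 (0.51) or BBDR.+/+ replicate 1 (0.62) or 2 (0.59), and with the covariate (0.63). Cyp7a1, the rate-limiting enzyme of bile acid synthesis, rose by 0.58 over pre-hyperglycemia (adjusted p = 0.0204), at 12.05 and 12.07 post-hyperglycemia, 11.53 and 11.43 pre-hyperglycemia, and 11.96 and 11.81 in BBDR.+/+. Its call ended without post-hyperglycemia replicate 1 (0.60) or 2 (0.57) or pre-hyperglycemia replicate 2 (0.54). Cyp39a1, an oxysterol hydroxylase, rose by 0.62 (adjusted p = 0.0323), and that call ended without post-hyperglycemia replicate 1 (0.61) or 2 (0.62), pre-hyperglycemia replicate 2 (0.44), or either BBDR.+/+ array (0.62). Cyp8b1, Cyp27a1 and Cyp7b1 did not pass, and the lowest level of Cyp7a1 and Cyp39a1 was on the pre-hyperglycemia arrays, where most of the members stood highest. The study picked Abcg8, Cyp7a1, Cyp39a1 and Srebf1 for its lipid lists on these arrays as well. With the covariate, Abcg8 was at 0.06, Cyp7a1 at 0.19 and Cyp39a1 at 0.09, and none passed.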

How the data were processed

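Liver RNA was measured on 6 arrays, 2 in each of 3 groups taken from the sample labels. Array images were quantified by the authors in Affymetrix Expression Console, and Partek Genomic Suite was used to normalize the signals. Software versions were not given in the sources used here, nor was the algorithm. As deposited, each array held 1 log2 signal per probe set. Their normalization sets the arrays to nearly equal medians, so a shift shared by most genes would not be seen. Array values carry no read depth, and the number of arrays limits the precision.

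Of the probe sets, 57 controls were set aside, leaving 31042, of which 20826 carried 1 gene symbol in the platform annotation, 436 several and 9780 none. All 27 measured members were found by Entrez ID in a RefSeq table, and 0 symbols differed. limma (version 3.58.1, R 4.3.3) was fitted with 1 mean per group over 6 arrays (3 residual and 7.70 prior degrees of freedom). No signal filter was used. The code of the test was checked on simulated data with independent noise, which does not show how sure the calls here are. Alternatives were median centring, quantile normalization, centring on 67 ribosomal protein probe sets, the brightest 60% of probe sets, limma on 1 comparison's arrays or with an intensity trend, the methods' t-test, rank product (4 pairwise ratios, 100 permutations, share of false positives under 20%), a replicate block, a 3' to 5' covariate, the mean of a gene's probe sets, and leaving out each array.

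The members, the lists and the tests were chosen with earlier results of these data known. Named in full were members with an adjusted p under 0.05 in any comparison, the 2 others of each role with the smallest p, and Srebf2, Insig1, Sqle, Scarb1 and Lrp1. All probe sets of a gene were given where their calls or signs differed. Promoter windows came from RefSeq (GRCr8). Figures were drawn with Python 3.11.15 and matplotlib 3.10.9.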

Additional observations from a re-analysis of the deposited data

How the results depend on the processing

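With 2 arrays to a group, the calls of single members moved with most settings while the medians mostly kept their sign. Apart from the mean of a gene's probe sets, a member was counted by its brightest probe set. Members called for post-hyperglycemia against pre-hyperglycemia were 1, and 0 with quantile normalization, ribosomal protein centring, the arrays of 1 comparison, the methods' t-test, rank product or the 3' to 5' covariate, 2 among the brightest 60% of probe sets, and 4 with an intensity trend. Against BBDR.+/+ after hyperglycemia they were 3, and 5 among the brightest 60%, 1 with the arrays of 1 comparison or the mean of a gene's probe sets, 10 with the trend, and 0 with the methods' t-test, rank product or the covariate. They were 3 with median centring (Acat2 in place of Insig2) and 2 with quantile normalization (without Mvd) or ribosomal protein centring (without Lrp1). Before hyperglycemia against BBDR.+/+ they were 0, and 1 (Cyp51) with median centring, 4 among the brightest 60% and 7 with the trend. Leaving out 1 array gave 0 to 0, 0 to 1 and 0 to 0 calls in the order of these comparisons, in each of which fewer samples remain in the fit. Over all probe sets the methods' t-test called 0, 0 and 1, rank product 538, 746 and 400, and the covariate fit 0, 0 and 115. The main fit called 677, 1599 and 223, the trend 1225, 2371 and 496, and the brightest 60% 923, 1881 and 322. Median centring called 672, 1634 and 244, and quantile normalization 616, 1561 and 182. Ribosomal protein centring called 630, 1567 and 185, and the arrays of 1 comparison 413, 1567 and 212.

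Medians ranged from -0.15 to -0.04, from 0.12 to 0.21 and from 0.25 to 0.32 with 1 array left out. With the covariate, the median was 0.06 for post-hyperglycemia minus pre-hyperglycemia, opposite in sign, and 0.40 for post-hyperglycemia minus BBDR.+/+. With the mean of a gene's probe sets the median of post-hyperglycemia minus BBDR.+/+ was 0.09, and with quantile normalization the median of pre-hyperglycemia minus BBDR.+/+ was 0.23. The covariate also turned the sign of Ebp (0.18), Sqle (0.26) and the Scarb1 probe set 1367855_at (0.07) against pre-hyperglycemia, and of Idi1 (-0.32), Nsdhl (-0.34), Sc5d (-0.45) and the same Scarb1 probe set (0.55) against BBDR.+/+. It was highest on the post-hyperglycemia arrays, so these turned signs cannot be told apart from the group. No other setting turned the sign of the 39 member results followed.

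The replicate numbers in the labels are given no meaning. With the replicate number as a block, calls were 2, 5 and 1 in the order above (adding Insig2, then Acat2 and Pmvk, then Cyp51), and 1191, 2273 and 408 over all probe sets, against 677, 1599 and 223 without it. Deviations of same-numbered arrays correlated at 0.11, 0.14 and 0.26 over all probe sets and at 0.49, 0.48 and 0.63 over the members, for post-hyperglycemia with pre-hyperglycemia, post-hyperglycemia with BBDR.+/+, and pre-hyperglycemia with BBDR.+/+.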
